A study of Zea mays with 17 samples.

Results

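Dcl5 (Dicer-like 5) was described in maize anthers as 1 row, Zm00001d032655, of the 46430 rows of a table of gene counts, 44146 of which are nuclear genes. The row was found by its identifier, and the table gives it a length of 8266 bases. The symbol Dcl5 was not in the reference table of gene names used here, so the identity of the row was taken as given and not checked. The anthers came from greenhouse-grown Zea mays of the inbred line W23, which carries bz2 and is labelled wild type. Tapetum (TAP), meiocytes (ME) and other somatic cells (OSC) were cut out of anthers by laser capture microdissection, and fixed whole anthers (FA) were profiled beside them, each at anther lengths of 2.0 mm and 1.5 mm. There were 2 libraries in each of the 8 groups, except FA at 1.5 mm with 3, which gives 17 libraries. All of them were made by CEL-seq2, in which polyadenylated RNA is primed at its tail and tags from the 3' ends of transcripts are counted. The labels do not say how many anthers or plants went into a library, so the p-values measure the spread between these libraries, which may be technical.

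Dicer-like proteins are ribonucleases that cut double-stranded RNA into small RNAs of a set length. In grasses DCL5 makes the 24-nt phased small RNAs (phasiRNAs) of anthers. A long precursor transcript is first cut under the guidance of the microRNA miR2275, an RNA-dependent RNA polymerase makes it double-stranded, and the dicer then cuts it at regular steps. The tapetum is the innermost wall layer of the anther and surrounds and feeds the meiocytes, which are the cells that undergo meiosis. In maize, mutants without DCL5 lack most of these small RNAs, and their male fertility depends on temperature. The title of the series states that these phasiRNAs move out of the tapetum into meiotic cells, and the comparisons here ask which cells hold the messenger RNA of their dicer, and at which length.

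Library totals ran from 280760 to 4428287 counts, a 15.8-fold range, and 11157 to 24411 genes had at least 1 count. Dcl5 had 724 counts in all 17 libraries together and 212 in the 12 captured ones, of which 184 lay in the 4 TAP libraries. In 3 libraries it had 0 counts, which allows up to 3 counts by counting error. That limit corresponds to 1.07 CPM (counts scaled to one common library total) in the deepest of these 3 and to 5.36 CPM in the shallowest. Across genes, replicates were least alike in ME at 2.0 mm (Pearson's r of log2 CPM 0.771), ME at 1.5 mm (0.759) and OSC at 1.5 mm (0.753), against 0.813 to 0.963 in the other groups. The second ME library of 1.5 mm was closer to the first ME library of 2.0 mm (r = 0.861) than to its own replicate, and the comparisons that use it are therefore also given without it. No marker gene of a cell type could be tied to a row, so the labelled cell types were not checked against markers and carry-over from neighbouring cells was not tested.

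In the tapetum Dcl5 was lower in both libraries of 2.0 mm than in both of 1.5 mm, which held the highest levels of the series. The TAP libraries of 2.0 mm held 37 and 7 counts, which is 13.9 CPM (95% exact Poisson interval 9.80 to 19.2) and 2.17 CPM (0.871 to 4.46). At 1.5 mm they held 71 and 69 counts, which is 143 CPM (112 to 181) and 137 CPM (107 to 174). These intervals cover counting error only and take each count as a separate molecule. Whether copies of one molecule were merged is not stated, and if they were not, all counting intervals given here are too narrow. The replicates at 1.5 mm were close to each other, while those at 2.0 mm differed 6.42-fold (counting interval 2.83 to 17.1), and the lengths did not overlap. Here and below, the share of all genes whose libraries separate in the same way was not computed. A lack of overlap therefore describes Dcl5 and does not set it apart from other genes. The raw counts at 2.0 mm were lower although those libraries were deeper, with 2657831 and 3230264 counts in total against 495100 and 501897 at 1.5 mm.

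In meiocytes Dcl5 was at or near the limit of detection. The ME libraries had 1 and 0 counts at 2.0 mm (1.03 CPM and 0), against 8 and 0 counts at 1.5 mm (3.43 CPM and 0). The library of 1.5 mm with 0 counts is the deeper of its pair, with 2795716 counts. The upper bound of its Poisson interval, 1.32 CPM, lies under the lower bound of 1.48 CPM of its replicate. This separation holds only if each count is a separate molecule. A Dcl5 signal in meiocytes was thus seen above 1 count in 1 of 4 libraries.

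In the other somatic cells Dcl5 was low at 1.5 mm and near the limit of detection at 2.0 mm. The OSC libraries held 0 and 4 counts at 2.0 mm (0 and 1.52 CPM), against 9 and 6 counts at 1.5 mm (11.0 and 21.4 CPM). The lengths did not overlap, and the higher value at 1.5 mm comes from the smallest library of the series, with an interval of 7.84 to 46.5 CPM.

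Whole fixed anthers carried Dcl5 in every library. The FA libraries of 2.0 mm held 91 and 20 counts, which is 20.5 and 8.65 CPM, and the first was 2.38 times the second (counting interval 1.45 to 4.07). Those of 1.5 mm held 79, 84 and 238 counts, which is 51.8, 65.2 and 69.2 CPM. All 3 libraries of 1.5 mm lay above both of 2.0 mm.

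**Figure D1:**
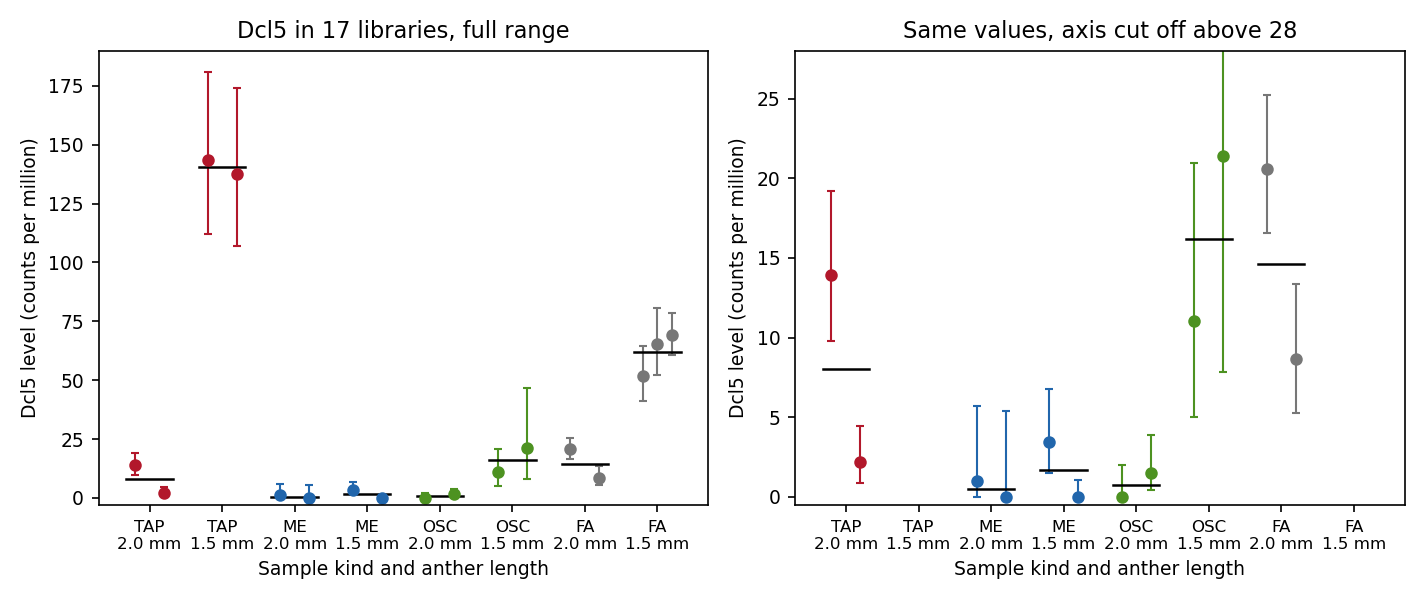
Dcl5 level in CPM for each library (points, with 95% exact Poisson intervals, or for libraries with 0 counts a bar up to the limit of 3 counts) and the mean of each group (black lines), on the full axis at the left and on an axis cut off above 28 at the right, where TAP and FA at 1.5 mm lie outside and 1 OSC interval is cut. The 2 TAP libraries of 1.5 mm, at 137 and 143 CPM, lie above all other libraries, and the ME libraries lie between 0 and 3.43 CPM.

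Ordered by mean CPM, TAP at 1.5 mm came first with 140.4 ± 4.19 CPM (SD, n = 2), followed by FA at 1.5 mm with 62.1 ± 9.11 CPM (n = 3) and OSC at 1.5 mm with 16.2 ± 7.31 CPM (n = 2). Then came FA at 2.0 mm with 14.6 ± 8.41 CPM, TAP at 2.0 mm with 8.04 ± 8.31 CPM, ME at 1.5 mm with 1.72 ± 2.43 CPM, OSC at 2.0 mm with 0.759 ± 1.07 CPM and ME at 2.0 mm with 0.513 ± 0.726 CPM (n = 2 each). TAP at 1.5 mm and FA at 1.5 mm overlapped with no neighbour in this order. From OSC at 1.5 mm downward every group overlapped with the next, so neighbours among the lower 6 groups are not told apart by these replicates.

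The first comparison asked whether the tapetum differs from the other captured cells at one length. In bulk captured samples, fewer cells of a type that carries the transcript and less of it per cell cannot be told apart. Counts were tested by edgeR's quasi-likelihood test with Benjamini-Hochberg adjustment over 16940 genes, and a gene is called when the adjusted p is under 0.05. Fold changes from this test are on the log2 scale. Their standard error is approximate, namely the size of the log2 fold change over the square root of the F statistic.

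At 1.5 mm Dcl5 was higher in TAP than in ME, with a log2 fold change of 6.10 ± 1.58 (SE) and an adjusted p of 0.0196. In this comparison 10.0% of the genes tested were called higher in TAP and 17.1% in either direction, and 5.93% of all genes had a larger log2 fold change than Dcl5. The ratio of summed counts per total was 90.0, with a counting interval of 44.4 to 212. Without the second ME library of 1.5 mm the log2 fold change was 4.87, the adjusted p 0.0484 and the ratio 40.9 (counting interval 20.2 to 96.6). The call was lost when the first TAP library of 1.5 mm was left out (log2 fold change 5.86, adjusted p = 0.0792) or the second (5.94, 0.0820). It was also lost when the 4 libraries of these groups were fitted alone (5.91, adjusted p = 0.0675), where 3.36% of genes were called in either direction.

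Between TAP and OSC at 1.5 mm the log2 fold change was 3.20 ± 1.40 and the adjusted p 0.247, so Dcl5 was not called, in a comparison where 0.614% of genes were called higher in TAP. The ratio of summed counts per total was 10.3 (counting interval 6.01 to 18.8), and the libraries did not overlap. Fitted on their own 4 libraries, the difference was called (log2 fold change 3.10, adjusted p = 0.00487), in a fit that called 24.3% of genes in either direction, against 2.86% in the fit of all captured libraries. The main fit shares one spread per gene among all captured groups. The gene-wise biological coefficient of variation of Dcl5 in that fit was 80.9%, against a common value of 70.6%. The gene-wise value is not the one the F-test uses. The TAP replicates of 1.5 mm differed 1.04-fold, and why the fits differ in the call was not tested. Between ME and OSC at 1.5 mm the log2 fold change was -2.90 ± 1.47 (adjusted p = 0.160), with 16.3% of genes called lower in ME. The libraries did not overlap, and without the second ME library the value was -1.72 (adjusted p = 0.396). The ratio of summed counts per total was 0.114 (counting interval 0.0419 to 0.287) with both ME libraries and 0.251 (0.0921 to 0.630) without the second. Without the first ME library of 1.5 mm the log2 fold change was -7.38. The remaining ME library then held 0 counts, so this value depends on the prior count that edgeR adds for fold changes.

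At 2.0 mm the TAP libraries again lay above all ME and OSC libraries, but no difference was called. The lower TAP value, 2.17 CPM, was under the limit of 5.36 CPM of the ME library with 0 counts. Its counting interval (0.871 to 4.46) also overlapped that of the OSC library with 4 counts (0.414 to 3.89). The same held for the ME library with 1 count (0.0260 to 5.72), so counting error does not separate these libraries. The log2 fold change was 3.64 ± 1.80 over ME (adjusted p = 0.144, 18.1% of genes called higher in TAP) and 2.91 ± 1.49 over OSC (adjusted p = 0.217, 2.45% called higher). Across all genes the median log2 fold change was 0.64 for TAP over ME and -0.20 for TAP over OSC at this length. The ratio of summed counts per total was 11.5 over ME, where 1 count stands in the denominator and the counting interval runs from 1.95 to 463. Over OSC it was 7.74 (interval 2.82 to 29.6). Between ME and OSC at 2.0 mm, with 1 and 4 counts in all, the ratio was 0.675 (interval 0.0137 to 6.82) and no difference was detectable at this depth (adjusted p = 0.801, 27.9% of genes called lower in ME).

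Both lengths together were tested for Dcl5 alone by permuting cell types among the captured libraries within each length. The log2 CPM in TAP minus that in ME and OSC averaged 3.27 over the lengths, and all 4 TAP libraries were above the ME and OSC libraries of their length. The exact two-sided permutation p was 0.00444 over 225 arrangements, the smallest this design can give. Libraries with 0 counts take a value set by the prior count, so the size of this difference depends on it. It was 4.09 with a prior count of 0.5 and 3.29 with RLE size factors. The same permutation test gave p = 0.00889 for both. These p-values are not adjusted, other genes were not tested this way, and Dcl5 was chosen with earlier results of these data known. Without the second ME library of 1.5 mm the difference was 2.85 and the exact permutation p 0.00667, again the smallest possible with the libraries left. By an exact permutation test a single pair of these groups cannot go below p = 0.333.

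**Figure D2:**
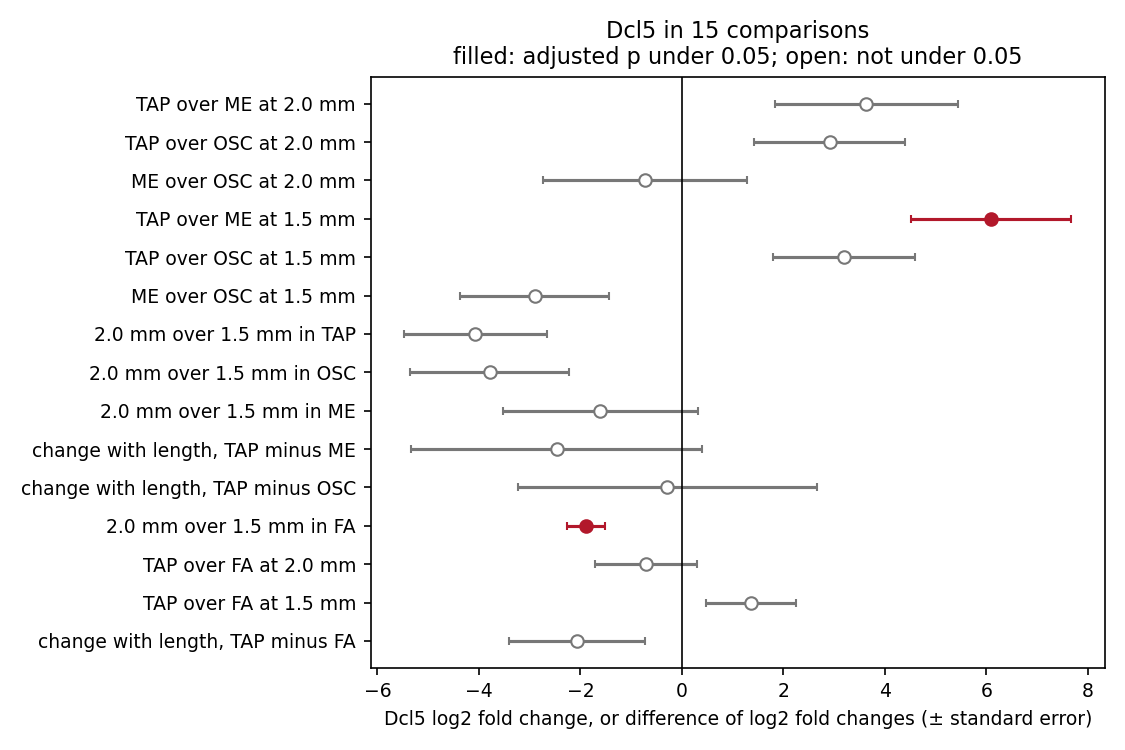
Log2 fold change of Dcl5 in each comparison, or the difference of 2 such changes (points), with its approximate standard error (bars), from edgeR's quasi-likelihood test. TAP over ME at 1.5 mm (6.10) and 2.0 mm over 1.5 mm in FA (-1.89) are the 2 filled points with an adjusted p under 0.05.

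The share of the captured level that lay in each cell type was largest in TAP at both lengths. This share is the mean CPM in that cell type over the sum of the means of the 3 cell types, so it takes the same amount of RNA from each. For Dcl5 the share in TAP was 86.3% at 2.0 mm and 88.7% at 1.5 mm, against medians over all genes of 28.2% and 27.3%. The share in OSC was 8.15% and 10.2%, and that in ME 5.51% and 1.08%. Of the genes with a value, 3.55% had a larger TAP share than Dcl5 at 2.0 mm (641 of 18080) and 2.73% at 1.5 mm (495 of 18140). At 2.0 mm the shares rest on 44 counts in TAP, 4 in OSC and 1 in ME, and on which TAP library is used. Without the first TAP library of 2.0 mm the TAP share was 63.0%, and 14.9% of genes had a larger one. Without the second it was 91.6%, and 1.97% of genes had a larger one. Without the second ME library of 1.5 mm the shares at that length were 87.7% in TAP, 2.15% in ME and 10.1% in OSC, and 3.72% of genes had a larger TAP share.

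**Figure D3:**
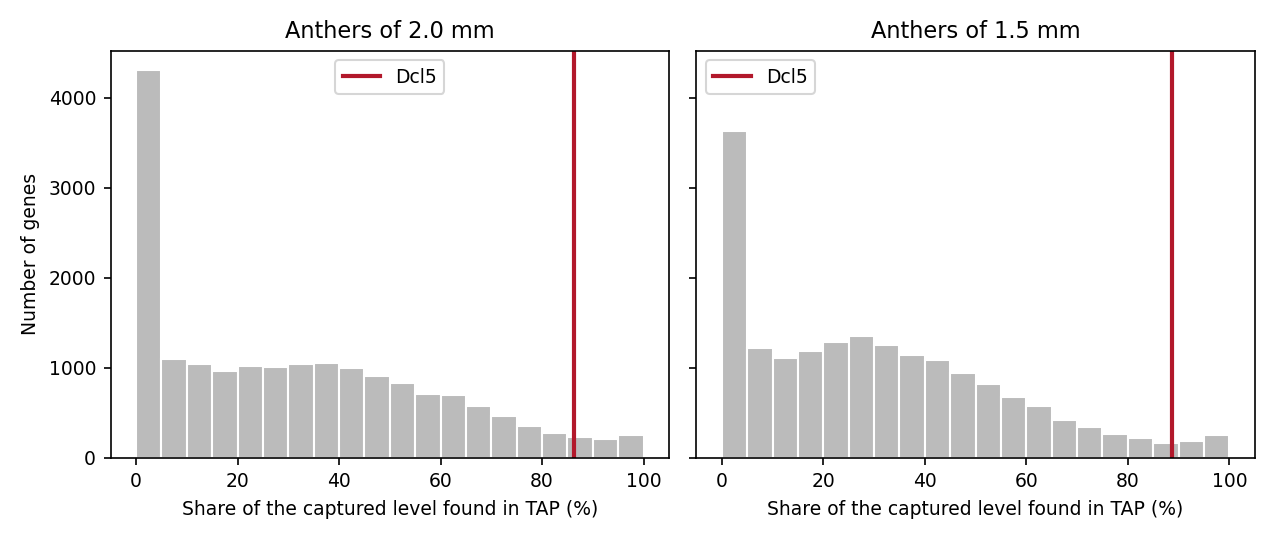
Number of genes (bars, 5 percentage points each) by the share of their captured level found in TAP, in percent, at 2.0 mm and 1.5 mm. Dcl5 (red line) lies at 86.3% at 2.0 mm and 88.7% at 1.5 mm, above the medians of 28.2% and 27.3%.

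The second comparison asked how Dcl5 changes as anthers grow, at 2.0 mm against 1.5 mm. In whole anthers Dcl5 fell, with a log2 fold change of -1.89 ± 0.37 and an adjusted p of 0.00559 by edgeR over 16116 genes in the 5 FA libraries. Here 14.5% of genes were called lower at 2.0 mm, and 6.65% of all genes had a more negative log2 fold change than Dcl5. The ratio of summed counts per total was 0.257 (counting interval 0.206 to 0.318). The call held when each FA library was left out in turn, with adjusted p-values up to 0.0384. It was lost with all 17 libraries in one fit (log2 fold change -1.99, adjusted p = 0.333). The gene-wise coefficient of variation of Dcl5, which the F-test does not use, was 61.9% there and 28.8% in the FA fit. The cause of the lost call was not tested.

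In the tapetum the log2 fold change with length was -4.07 ± 1.40, a 16.8-fold lower fitted level, with an adjusted p of 0.126. The unadjusted p was 0.0118, and 2.85% of genes were called lower in TAP at 2.0 mm. The difference was called with DESeq2 (adjusted p = 0.0374), without a low-count filter (0.0355), with all 17 libraries in one fit (0.0288) and with the 4 TAP libraries alone (0.0136). These settings also called more genes in either direction, namely 8.86%, 4.68%, 10.8% and 16.5%, against 3.71% in the fit of all captured libraries. Dcl5 was not called with RLE factors (adjusted p = 0.111), library totals (0.119), the replicate block (0.143) or nuclear rows only (0.131). Over these 8 alternatives the log2 fold change stayed between -4.37 and -4.00. It was also called when either ME library of 1.5 mm was left out (adjusted p = 0.0356 without the first and 0.0348 without the second), though neither belongs to the comparison. Leaving out any other captured library gave no call, with adjusted p-values of 0.0948 to 0.496. The library composition moved with length as well. Mitochondrial genes took 0.945 ± 0.0153% of TAP counts at the later length and 10.2 ± 0.590% at the earlier one (SD, n = 2 for both). Scaled to nuclear counts alone, Dcl5 averaged 8.15 ± 8.41 CPM in TAP of 2.0 mm, against 161 ± 3.39 CPM in TAP of 1.5 mm, and the fit on nuclear rows gave a log2 fold change of -4.10.

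In OSC the log2 fold change with length was -3.79 ± 1.57 (adjusted p = 0.385, 0.201% of genes called lower), and 3.67% of all genes had a more negative value. Mitochondrial genes took 1.21 ± 0.147% of OSC counts at the later length and 3.81 ± 0.352% at the earlier one (SD, n = 2 for both), and the fit on nuclear rows gave -3.82. In ME it was -1.61 ± 1.92 (adjusted p = 0.865, 0.00590% called lower), and it turned to 2.91 without the first ME library of 1.5 mm, which holds all 8 counts of that group. Without the second it was -2.56 (adjusted p = 0.533). The change in TAP did not differ detectably from that in ME (difference of log2 fold changes -2.46 ± 2.87, adjusted p = 0.778, 1.12% of genes called; -1.50, adjusted p = 0.992, without the second ME library of 1.5 mm) or from that in OSC (-0.28 ± 2.94, adjusted p = 0.9998, 0.809% called). The standard errors of both differences are rough, because they rest on small F statistics (0.737 for ME and 0.00931 for OSC). With single libraries left out, the difference ranged from -6.97 to 0.55 for ME and from -2.07 to 3.27 for OSC. Both signs thus turned, and differences of several fold are not excluded.

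A test of Dcl5 alone over all 4 kinds of sample permuted the lengths within each kind. The log2 CPM at 2.0 mm minus that at 1.5 mm averaged -2.51, and the exact two-sided permutation p was 0.00324 over 2160 arrangements. With a prior count of 0.5 the difference was -2.94 and the exact permutation p 0.00648. These p-values, too, are not adjusted, and other genes were not tested this way. In TAP, OSC and FA all libraries of 2.0 mm lay below all of the same kind at 1.5 mm, while the ME libraries overlapped. How many other genes have this order was not counted, so it is not shown to be particular to Dcl5. Without the second ME library of 1.5 mm the mean difference was -2.80.

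The third comparison set the tapetum against whole anthers, fitted over all 17 libraries and 18310 genes. Captured cells and whole anthers were prepared differently, so cell type and preparation cannot be told apart here. Mitochondrial genes took 10.2% of TAP counts and 1.44% of FA counts at 1.5 mm, and 0.945% and 1.19% at 2.0 mm (means). At 2.0 mm the TAP libraries (13.9 and 2.17 CPM) overlapped with the FA libraries (20.5 and 8.65 CPM), with a log2 fold change of -0.70 ± 1.003 (adjusted p = 0.721, 13.6% of genes called lower in TAP). Without the second TAP library of 2.0 mm the log2 fold change was 0.0069. At 1.5 mm both TAP libraries lay above the 3 FA libraries, and the log2 fold change was 1.36 ± 0.88 (adjusted p = 0.336, 3.80% of genes called higher in TAP). With only the 5 libraries compared it was 1.39 and was called (adjusted p = 0.00122), in a fit that called 42.8% of genes in either direction, against 10.5% with all 17 libraries. The mean of FA at 2.0 mm was above the mean of each captured cell type. The first FA library of that length, at 20.5 CPM (interval 16.5 to 25.2), was above all captured libraries of 2.0 mm, although its interval overlapped that of the first TAP library (9.80 to 19.2). The change with length in TAP minus that in FA, a comparison added after the values were seen, was -2.07 ± 1.34 (adjusted p = 0.459, 3.88% of genes called).

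To place the pattern of Dcl5 among other genes, log2 CPM was correlated with that of Dcl5 over the 17 libraries for 18309 genes. The libraries share groups and depth, and the genes are not independent, so these correlations are a description. The median r was 0.095, 212 genes had r above 0.8 and 19 above 0.9. The table and the reference do not name the nuclear identifiers, so only the 2 most alike and the 2 least alike are given, and nothing is known here of what they encode.

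The most alike was Zm00001d014315, with r = 0.937. In TAP it averaged 0.719 ± 0.579 CPM in anthers of 2.0 mm, against 1083 ± 30.3 CPM in those of 1.5 mm (SD, n = 2). In FA it averaged 13.6 ± 16.8 CPM at 2.0 mm (n = 2), against 309 ± 59.3 CPM at 1.5 mm (n = 3). In ME it had 0 counts in both libraries of 2.0 mm, and 14 and 0 counts at 1.5 mm. The next was Zm00001d046174 (r = 0.935), which in TAP averaged 2.33 ± 0.640 CPM at 2.0 mm, against 213.6 ± 0.641 CPM at 1.5 mm (n = 2).

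Like Dcl5, both genes were higher in the first FA library of 2.0 mm than in the second. Both were chosen for their likeness to Dcl5 over these same libraries, so this is not independent of the choice. In the TAP libraries of that length Zm00001d014315 had 3 and 1 counts, against 113 and 4 in the FA libraries. Zm00001d046174 had 5 and 9 counts in TAP, against 55 and 4 in FA. The first FA library had 4428287 counts in total and the second 2311928.

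The least alike was Zm00001d041592 (r = -0.896), which in TAP averaged 86.9 ± 26.0 CPM at 2.0 mm, against 13.0 ± 1.54 CPM at 1.5 mm. Zm00001d048824 followed (r = -0.889), which in TAP averaged 102 ± 11.2 CPM at 2.0 mm, against 62.4 ± 34.6 CPM at 1.5 mm (n = 2). Both had their lowest group means in TAP and FA at 1.5 mm, the groups where Dcl5 was highest, which follows in part from how they were chosen.

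**Figure D4:**
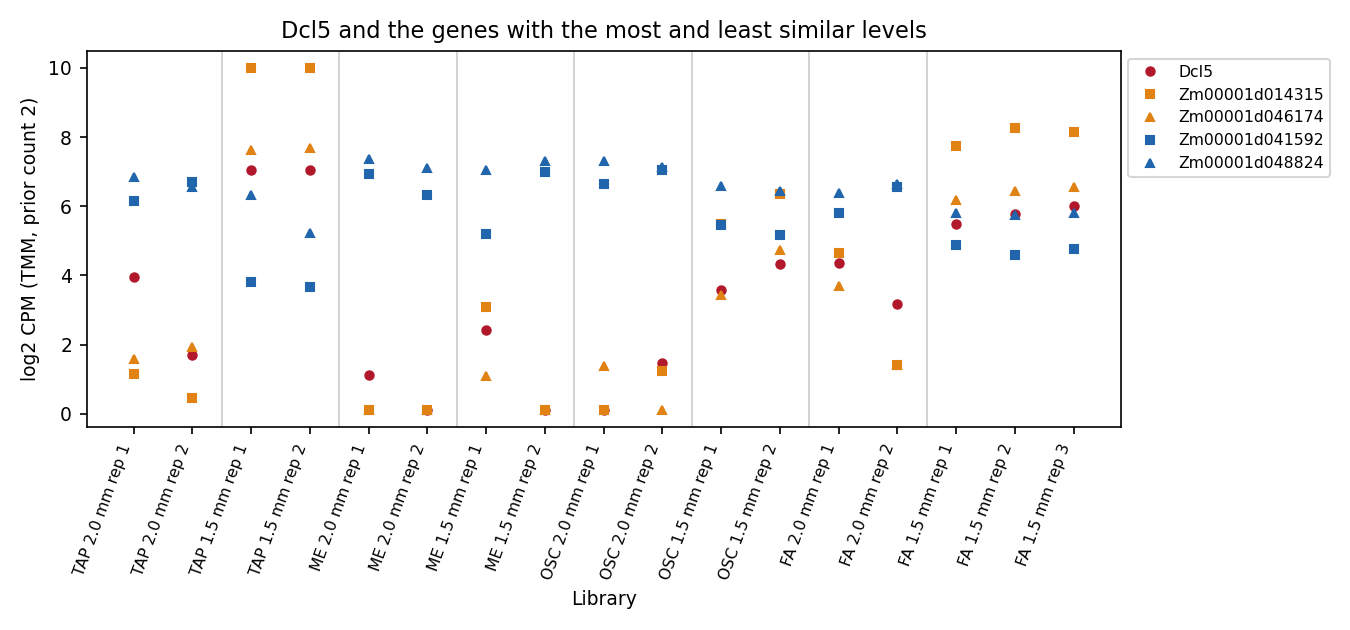
Log2 CPM of Dcl5 (red), of the 2 genes most like it (orange) and of the 2 least like it (blue) in each of the 17 libraries, grouped by sample kind and anther length, with some points hidden where genes lie at the same value near 0. Dcl5 and the orange genes are high in TAP and FA at 1.5 mm, where the blue genes are low.

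Of the other parts of the pathway, the trigger microRNA genes were in the table but without counts. The 4 MIR2275 rows, whose product cuts the precursors of the 24-nt phasiRNAs, and the 7 MIR2118 rows, whose product triggers another class of phased small RNAs, had 0 counts in all 17 libraries. So did all 154 microRNA gene rows, so a 0 here does not separate these triggers from any other microRNA gene. Of 32 symbols of dicers, Argonaute proteins, RNA-dependent RNA polymerases and their partners, 6 were in the reference table of gene names and 0 could be tied to a row of the counts, and their levels are not analysed here. The same held for 10 tapetum, 13 meiocyte and 3 other somatic markers, of which 4, 8 and 1 were in that table and 0 could be tied to a row.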

How the data were processed

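The authors deposited 1 table of raw counts per gene with 1 column per library (17 in all) and a column of row lengths in bases. Per the submitters' processing notes, fastp, Trim Galore and HISAT2 were used. Their versions, the counter, the genome build, the use of strand and the treatment of molecular identifiers are not given in the sources used here. Reads shared with an overlapping gene or a near-identical copy are therefore uncertain, and so is whether each count is a separate molecule. A row of library names without a gene was left out, and 0 per-sample columns were left unused. The sample titles gave the groups and the replicate numbers.

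Dcl5 and the lists were chosen with earlier results of these data known. CPM are counts per library total. Tests used edgeR 4.0.16 (limma 3.58.1, R 4.3.3) with quasi-likelihood F-tests, robust dispersions, TMM factors and filterByExpr (minimum count 10, minimum total 15), fitted on the 12 captured libraries, the 5 FA libraries or all 17. These are 15 results, each adjusted over its own genes. Log2 CPM used a prior count of 2. Intervals are 95% exact Poisson for levels and exact conditional binomial for ratios. The genes named beside Dcl5 are the 2 with the highest and the 2 with the lowest Pearson correlation with it over 17 libraries. Gene names came from RefSeq for assembly Zm-B73-REFERENCE-NAM-5.0. Scripts were tested on simulated data. The alternatives were RLE factors, library totals, no filter, DESeq2 1.42.0, a replicate block, nuclear rows only, other sets of libraries in the fit, a prior count of 0.5, and leaving out each library. The ratios and shares without single libraries were added after the values were seen. Python 3.11.15, NumPy 2.4.6, pandas 2.3.3, SciPy 1.17.1 and matplotlib 3.10.9 were also used.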

Additional observations from a re-analysis of the deposited data

How the results depend on the processing

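All directions held under RLE factors, library totals, no filter, DESeq2, the replicate block, nuclear rows only and the other sets of libraries. Dcl5 became called lower at 2.0 mm in TAP without a filter (log2 fold change -4.00), with DESeq2 (-4.25), with all 17 libraries (-4.06) and with its own 4 libraries (-4.18). With only the libraries compared, TAP over OSC at 1.5 mm (3.10) and TAP over FA at 1.5 mm (1.39) became called and TAP over ME at 1.5 mm was lost (5.91). With all 17 libraries the fall in FA was lost (-1.99). In fits of only the libraries compared Dcl5 did not pass the filter at 2.0 mm between captured cells or in ME, so those gave no value. The share of all genes called also moved: for TAP over ME at 1.5 mm it was 3.36% with only the libraries compared and 29.0% with all 17, against 17.1%, and for length in FA 4.58% with all 17, against 29.7%. Where Dcl5 became called, more genes were called too: 24.3% against 2.86% for TAP over OSC at 1.5 mm, 42.8% against 10.5% for TAP over FA at 1.5 mm, and 4.68% to 16.5% against 3.71% for length in TAP. The cause was not tested.

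Leaving out each library in turn gave log2 fold changes of 1.52 to 6.63 for TAP over ME at 2.0 mm, 1.07 to 6.42 for TAP over OSC at 2.0 mm and -3.73 to 3.03 for ME over OSC at 2.0 mm. At 1.5 mm the ranges were 4.87 to 10.6 for TAP over ME, 2.76 to 3.56 for TAP over OSC and -7.38 to -1.72 for ME over OSC. For 2.0 mm over 1.5 mm they were -5.92 to -3.26 in TAP, -7.33 to -3.11 in OSC, -4.58 to 2.91 in ME and -2.69 to -1.45 in FA. TAP over FA ranged from -2.76 to 0.0069 at 2.0 mm and from 1.13 to 1.48 at 1.5 mm. The difference of length changes ranged from -6.97 to 0.55 for TAP minus ME (0.55 without the first ME library of 2.0 mm), from -2.07 to 3.27 for TAP minus OSC (3.27 without the second OSC library of 2.0 mm, 0.19 without the first of 1.5 mm, 0.58 without the second TAP library of 2.0 mm) and from -3.92 to -1.35 for TAP minus FA. ME over OSC at 2.0 mm reached 3.03 without the second OSC library of 2.0 mm. The permutation differences ranged from 2.70 to 3.80 for TAP and from -2.80 to -2.21 for length. For TAP each exact permutation p was the smallest that the remaining libraries allow, so these p-values do not show how far the result weakens.

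No pairing of samples by replicate number was visible: deviations of libraries with the same number correlated between groups with r from -0.212 to 0.129 over 28 pairs of groups. This does not settle whether libraries with the same number share plants or a batch. With the replicate block the log2 fold change was 6.41 for TAP over ME at 1.5 mm (adjusted p = 0.0227), -4.37 for length in TAP (0.143) and -1.89 for length in FA (0.0292), and no Dcl5 call changed. The 2 most alike genes were also the top 2 by Spearman's rho, and 0 of them were in the top 2 over the captured libraries alone. Counts of 0 to 8 in ME and of 0 to 4 in OSC at 2.0 mm limit every ratio against these groups.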
